A study of Mus musculus with 6 samples.

Results

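Mitochondrial ribosomal protein genes were taken as the rows whose symbol begins with Mrpl or Mrps followed by a digit, which gave 78 of the 24848 symbols in the table, 49 named Mrpl and 29 named Mrps. The rule itself uses the names and no measured value, although the set was chosen for study with earlier results of these data known. The genes were compared between RAW 264.7 cells, a macrophage-like line from a tumour that Abelson murine leukaemia virus induced in a BALB/c mouse, and RAW 264.7 cells with a knockout of APOBEC1, a cytidine deaminase that edits RNA. The series was made to compare a way of reading RNA editing from sequencing traces with RNA sequencing. It holds 3 libraries of unmodified cells (WT, genotype label WT) and 3 of knockout cells (KO, genotype label APOBEC1 KO), each from the total RNA of a separate plate. All plates were grown without a stimulus named in the labels, in high-glucose medium with serum. No label states the method of the knockout or the number of clones behind it. Genotype and any other difference between the lines cannot be told apart, and the p-values below reflect only how much plates of a line varied.

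The mitochondrial ribosome translates the few mRNAs that mitochondrial DNA encodes, all for subunits of the respiratory chain and of ATP synthase. Its RNAs come from mitochondrial DNA, while each of its proteins is encoded in the nucleus, made in the cytosol and imported. Some of these proteins descend from bacterial ribosomal proteins and others are found only in mitochondria. The small subunit reads the mRNA, and the large subunit joins amino acids and releases the chain at the inner membrane. In macrophages the respiratory chain that it supplies is remodelled during activation.

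Gene-assigned reads numbered 50493447 to 70411383 in the 6 libraries. A level is given in CPM (reads of a gene per 1000000 reads assigned to genes) with the SD of 3 libraries. A log2 fold change compares KO with WT on the log2(CPM + 0.5) scale and carries the SE from limma. A gene was called at a Benjamini-Hochberg adjusted p under 0.05 over all 10614 tested genes. The Apobec1 libraries read 373, 431 and 396 CPM in WT against 339, 340.1 and 361 CPM in KO. Its log2 fold change was -0.20 ± 0.07 (adjusted p = 0.0663, limma). A two-sided exact permutation of the libraries returned p = 0.1, and a lower value cannot be reached with 3 a side. Since a disrupted gene may still be transcribed, the level leaves the genotype labels unchecked. All 8 macrophage markers examined were expressed (summed level 3122 to 3223 CPM in WT and 3439 to 3794 in KO), 2 of them higher and 2 lower in KO. Of 18 markers of fibroblasts, epithelium, T and B cells, endothelium and neutrophil precursors, 8 were at 0 and only S100a8 passed the filter, rising from 0.943 ± 0.112 to 3.99 ± 0.761 CPM.

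Some promoters of these genes hold short letter strings that the selection did not use. RefSeq promoter entries (GRCm38.p6, the assembly named mm10 in the processing notes), which run from 250 bases before to 50 bases after an annotated start, were found for 69 of the 78 genes, in 75 entries. The string CCGGAAG, the core recognised by ETS factors such as GABP, stood on either strand in 34.7% of the 75 entries, against 19.3% of 10827 entries of tested genes and 8.86% of all 32851 entries. The string AAGATGGC, the core recognised by YY1, stood in 16.0% of the members' entries, against 4.94% of those of tested genes and 2.75% of all. The palindrome recognised by NRF1, in capitals in the last 3 windows below, stood in 3 entries, those of Mrpl9, Mrpl32 and Mrpl39 (4.00%, against 2.33% of those of tested genes and 0.971% of all). None of the strings contains another. Mrpl32 holds both the NRF1 and the YY1 string, and 3 genes hold both the ETS and the YY1 string. In all, 37 genes held at least 1 of the strings and 32 held none of them in these windows. A match is a description of letters and not of a bound site.

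The windows below show the ETS string in some of the genes whose level differed between the lines, and in Mrps18a, a paralogue of 1 of them. Entries of Mrpl18, Mrpl48, Mrps33 and Mrps18b hold that string too and are not shown. The windows also show the NRF1 string in the genes that hold it. Each is 30 bases on the strand of the gene, 5′ to 3′, with the matched string or its reverse complement in capitals. Mrpl53 holds the ETS string in opposite orientations, at chr6:83109038-83109067 and chr6:83109081-83109110. The windows of Mrps26, Mrps18c, Mrpl51 and Mrps18a lie at chr2:130563732-130563761, chr5:100798592-100798621, chr6:125192099-125192128 and chr17:46110967-46110996, all on the plus strand. The NRF1 windows of Mrpl9 (plus strand), Mrpl32 and Mrpl39 (minus strand) lie at chr3:94443298-94443327, chr13:14613105-14613134 and chr16:84735350-84735379.
Mrpl53, upstream match: ccgcggagccgCCGGAAGcggtccgttcca
Mrpl53, downstream match: cagtgctactcCTTCCGGggtggaggtaac
Mrps26: ctccgcggccaCTTCCGGgccgggcgcagg
Mrps18c: gggtcacgtgaCTTCCGGcccgggaagcgc
Mrpl51: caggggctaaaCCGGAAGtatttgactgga
Mrps18a: acacccctgctCCGGAAGcggaagtgcaca
Mrpl9: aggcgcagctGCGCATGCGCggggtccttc
Mrpl32: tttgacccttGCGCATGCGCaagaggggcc
Mrpl39: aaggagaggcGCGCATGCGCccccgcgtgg

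The 26 genes with the ETS string had a median log2 fold change (KO against WT) of 0.003 and those with an entry but without it -0.01. Of the 26, 7 passed the test between the lines, and of the 43 without it 6, beside 30.4% of all tested genes. For the YY1 string the medians were 0.08 for the 12 genes with it, of which 1 was called, and -0.02 for those without. For the NRF1 string they were 0.07 for the 3 genes with it, of which 0 were called by limma, edgeR or DESeq2 (unadjusted p by limma 0.147 to 0.517), and -0.01 for those without. Whether genes with and without a string differ was not tested. The genes with the ETS string include Mrpl53, which was lower in KO, and Mrps18c and Mrpl51, which were higher. The entries of Mrps2 and Mrps5, the genes with the largest positive differences, and of Mrps9 held none of the 3 strings.

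All 78 genes were expressed and all passed the filter on low values, so no member was left out. Mean levels over the 6 libraries ran from 11.5 to 151 CPM with a median of 50.8 CPM. The smallest value in a library rested on 625 reads, for which counting alone gives a coefficient of variation of 4.00%, and the largest on 11109 reads. The coefficient of variation between plates had a median of 6.15% in WT and 5.43% in KO. The SE of a log2 fold change had a median of 0.08 over the members.

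The mRNAs of the set were not at equal levels. Per kilobase of the longest principal transcript, WT levels ran from 4.49 to 126 CPM per kb, a ratio of 28, with a median of 33.4 and quartiles of 18.8 and 53.9. The highest were Mrpl42 (126 CPM per kb), Mrps21 (123) and Mrpl12 (121), and the lowest Mrpl47 (4.49), Mrps25 (8.27) and Mrpl48 (9.91). The transcript chosen for a gene sets this value: its length was 3364 bases for Mrpl47, 6073 for Mrps25 and 4285 for Mrpl48, beside 1302 for the median member. The median was 37.6 CPM per kb for the large subunit and 27.7 for the small subunit in WT, and 35.9 and 28.2 in KO.

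The summed level of the set differed between the lines by less than its spread. Summed over the 78 genes, WT replicates 1, 2 and 3 held 4562, 4263 and 4226 CPM and KO replicates 1, 2 and 3 held 4450, 4554 and 4199 CPM. The groups overlap, and the spread within each line (4350 ± 184 CPM in WT and 4401 ± 183 in KO, n = 3 each) exceeds the difference of their means. Within WT, replicate 1 was the highest library for 63 of the 78 genes, and within KO replicate 3 was the lowest for 62 and replicate 2 the highest for 52. Rn45s, the ribosomal RNA precursor, took 2.75% of reads in WT replicate 1, 0.381% and 2.43% in the other WT libraries and 0.542% to 1.40% in KO. Its part in the members' levels was tested only by rescaling without it, which gave 7 genes higher and 8 lower. In bulk RNA, fewer cells that express a gene and less of its RNA per cell cannot be told apart. Cytosolic ribosomal protein genes, 84 rows chosen by symbol after the data were seen, gave a summed level 19.6, 18.5 and 19.3 times that of the mitochondrial set in WT and 15.4, 15.4 and 14.4 times in KO, and the groups do not overlap. Of their 74 tested rows 52 fell and 1 rose, with a median log2 fold change of -0.33. The difference between the families was not tested.

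**Figure D1:**
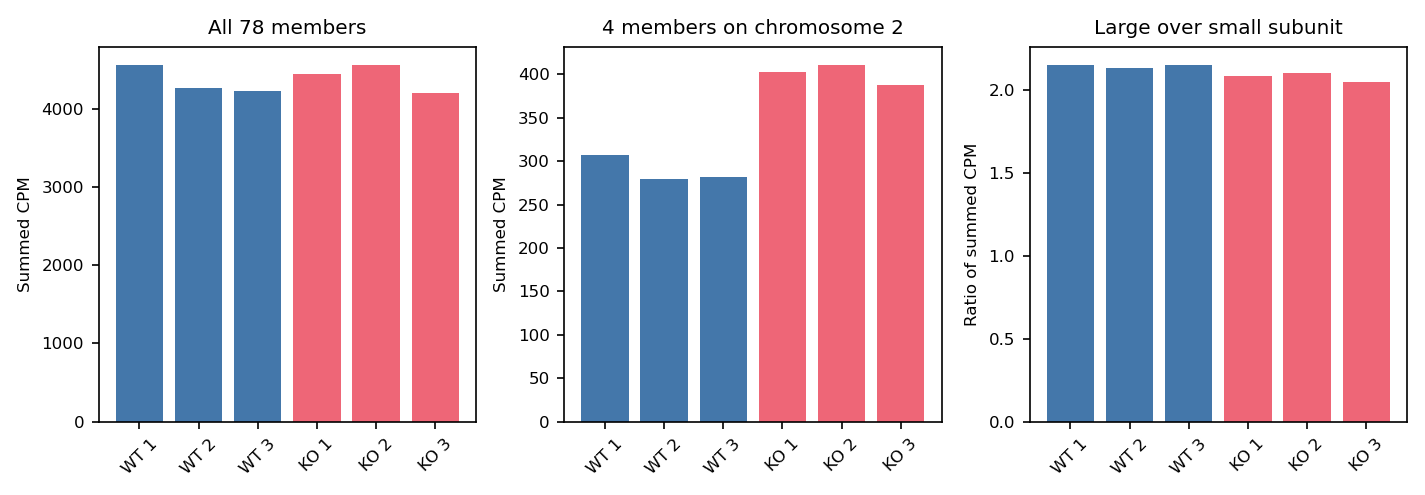
Summed CPM of all 78 mitochondrial ribosomal protein genes (left), summed CPM of the 4 on chromosome 2 (middle) and ratio of summed large-subunit to small-subunit CPM (right). Each bar is 1 library, WT in blue and KO in red, and all axes start at 0: totals overlap between the lines, the sums on chromosome 2 do not, and the ratio is 2.14 to 2.15 in WT and 2.05 to 2.11 in KO.

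Gene by gene, 13 of the 78 passed the test (16.7%), 7 higher and 6 lower in KO, against 30.4% of all tested genes, 13.5% higher and 16.9% lower. EdgeR called 14 members beside 31.6% of all tested genes, and DESeq2 15 beside 35.4%. Among the 6881 tested genes whose mean level lies in the range of the members 26.5% were called. The higher genes were Mrps5, Mrps2, Mrpl41, Mrpl51, Mrps18c, Mrps26 and Mrpl18, and the lower ones Mrpl53, Mrps9, Mrps24, Mrps6, Mrps33 and Mrpl48. The groups of libraries did not overlap for 34 genes, 18 with KO above and 16 with KO below, beside 46.4% of all tested genes (20.9% above and 25.4% below). Of these 34, 21 were not called. No fold reached 2 (0 of 78): KO over WT ran from 0.730 to 1.51. The 78 log2 fold changes had a median of 0.0009 and an SD of 0.20, beside a median of -0.02 and an SD of 0.46 over all tested genes. For 84.6% of the members the estimate lay within 0.25 of 0, and for 62.9% of all tested genes. With TMM scaling 9 were higher and 5 lower, so the share of higher calls depends on the scaling.

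**Figure D2:**
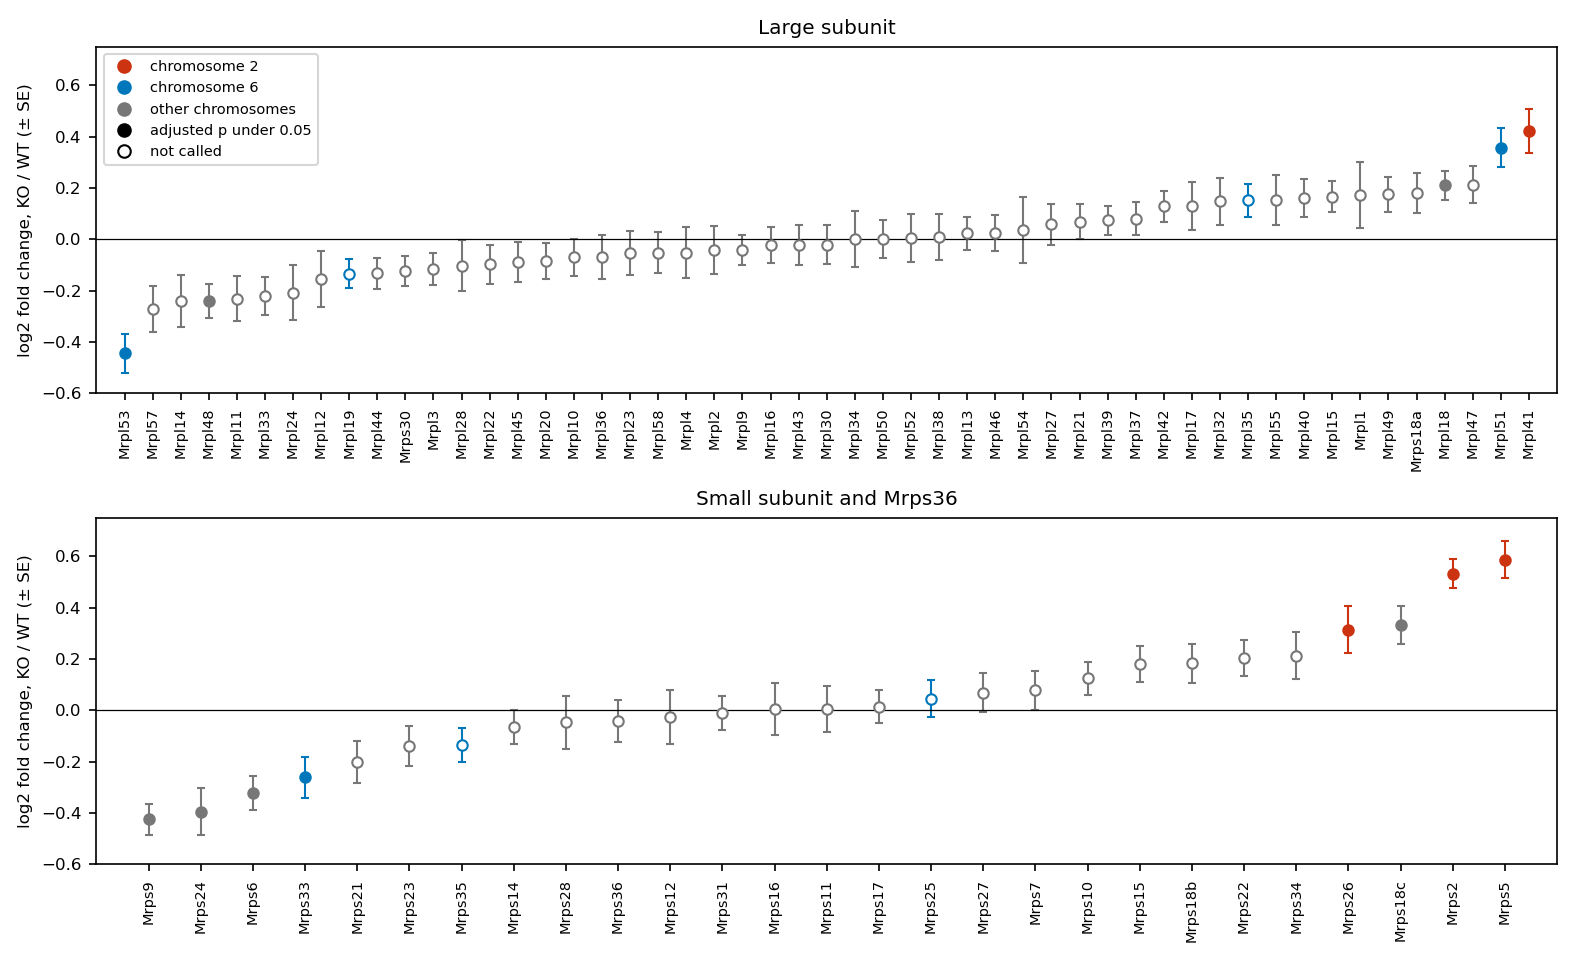
Log2 fold change (KO over WT, error bars ± SE, 3 libraries a group) of each gene of the large subunit (top) and of the small subunit with Mrps36 (bottom), in rising order. Filled points passed the test and colours mark chromosomes 2 and 6. The large-subunit points run from Mrpl53 at -0.44, the lowest of all members, to Mrpl41 at 0.42. The small-subunit points run from Mrps9 at -0.43 to Mrps5 at 0.59, the highest of all members.

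In the small subunit, 8 of 26 genes were called, 4 higher and 4 lower, with a median log2 fold change of 0.01. This share, 30.8%, is near that of all tested genes. Mrps5 encodes the counterpart of a bacterial protein at the channel where mRNA enters. It stood at 61.5, 54.5 and 54.9 CPM in WT and 89.9, 83.8 and 83.5 CPM in KO. The KO libraries lay well above the WT ones, 56.96 ± 3.97 against 85.7 ± 3.60 CPM (1.51-fold), and the log2 fold change was 0.59 ± 0.07 (adjusted p = 0.000766, limma). Mrps2, whose bacterial counterpart joins the head and body of the small subunit, stood at 103, 106 and 107 CPM in WT and 149.6, 156 and 151 CPM in KO. Its replicates varied little and the lines were far apart, with a rise of 1.45-fold (log2 fold change 0.53 ± 0.06, adjusted p = 0.00034, limma).

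Mrps26, a small-subunit protein found only in mitochondria, stood at 96.4, 78.4 and 78.1 CPM in WT and 102, 109 and 102 CPM in KO. WT replicate 1 lay close to the KO libraries, and the rise was 1.24-fold (log2 fold change 0.31 ± 0.09, adjusted p = 0.0354, limma). Without WT replicate 2 or 3, or any of the KO libraries, its adjusted p was 0.0774 to 0.124. Mrps18c belongs to a family of 3 genes that all descend from a single bacterial gene. It stood at 34.7, 39.0 and 37.3 CPM in WT and 49.4, 45.7 and 44.95 CPM in KO, a rise of 1.26-fold (log2 fold change 0.33 ± 0.07, adjusted p = 0.0121, limma). Without KO replicate 1 its adjusted p was 0.0622.

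Its paralogues, counted here among the proteins found only in mitochondria because bacteria have a single such gene, were not called, and their estimates had the same sign. Mrps18a, whose product sits in the large subunit despite its name, stood at 54.1, 49.7 and 48.2 CPM in WT and 56.7, 62.1 and 53.9 CPM in KO. WT replicate 1 lay just above KO replicate 3, so the groups overlap (log2 fold change 0.18 ± 0.08, adjusted p = 0.122, limma). Mrps18b, a small-subunit protein, stood at 45.6, 40.2 and 41.2 CPM in WT and 46.1, 51.1 and 47.1 CPM in KO. All KO values lay above the WT values, with WT replicate 1 just below KO replicate 1 (log2 fold change 0.18 ± 0.08, adjusted p = 0.111, limma). Without WT replicate 1 both passed, with adjusted p = 0.0485 for Mrps18a and 0.0323 for Mrps18b.

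Mrps9 was lower in KO by the widest margin in the small subunit. Its product, the counterpart of a bacterial protein whose tail reaches the tRNA in the decoding centre, was encoded at 134, 134 and 126 CPM in WT and 99.1, 94.1 and 100 CPM in KO. Each WT library was above all KO libraries, and the log2 fold change was -0.43 ± 0.06 (adjusted p = 0.00159, limma). Mrps24, the counterpart of a bacterial protein near the mRNA entrance, went from 60.9, 52.3 and 52.0 CPM to 41.6, 44.99 and 38.6 CPM. The WT values are spread wider than the KO values, and the log2 fold change was -0.39 ± 0.09 (adjusted p = 0.0130, limma). Without KO replicate 1 its adjusted p was 0.0552, and without KO replicate 3 it was 0.0516.

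Mrps6, the counterpart of a protein of the bacterial platform, went from 59.9, 58.7 and 55.1 CPM in WT to 46.7, 47.5 and 44.4 CPM in KO (log2 fold change -0.32 ± 0.07, adjusted p = 0.00807, limma). Mrps33, found only in mitochondria, went from 32.6, 29.7 and 30.6 CPM to 27.9, 25.4 and 24.1 CPM (log2 fold change -0.26 ± 0.08, adjusted p = 0.0423, limma). The gap between the lines was small for Mrps33, and its call was lost in 5 of the 6 runs that left out a library, all but that without WT replicate 2, with adjusted p of 0.0508 to 0.142. EdgeR and DESeq2 did not call it (adjusted p = 0.0811 and 0.0712). Mrps36, now known as a subunit of the 2-oxoglutarate dehydrogenase complex, was counted apart, with 20.5 ± 1.40 CPM in WT against 19.9 ± 0.976 CPM in KO.

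**Figure D3:**
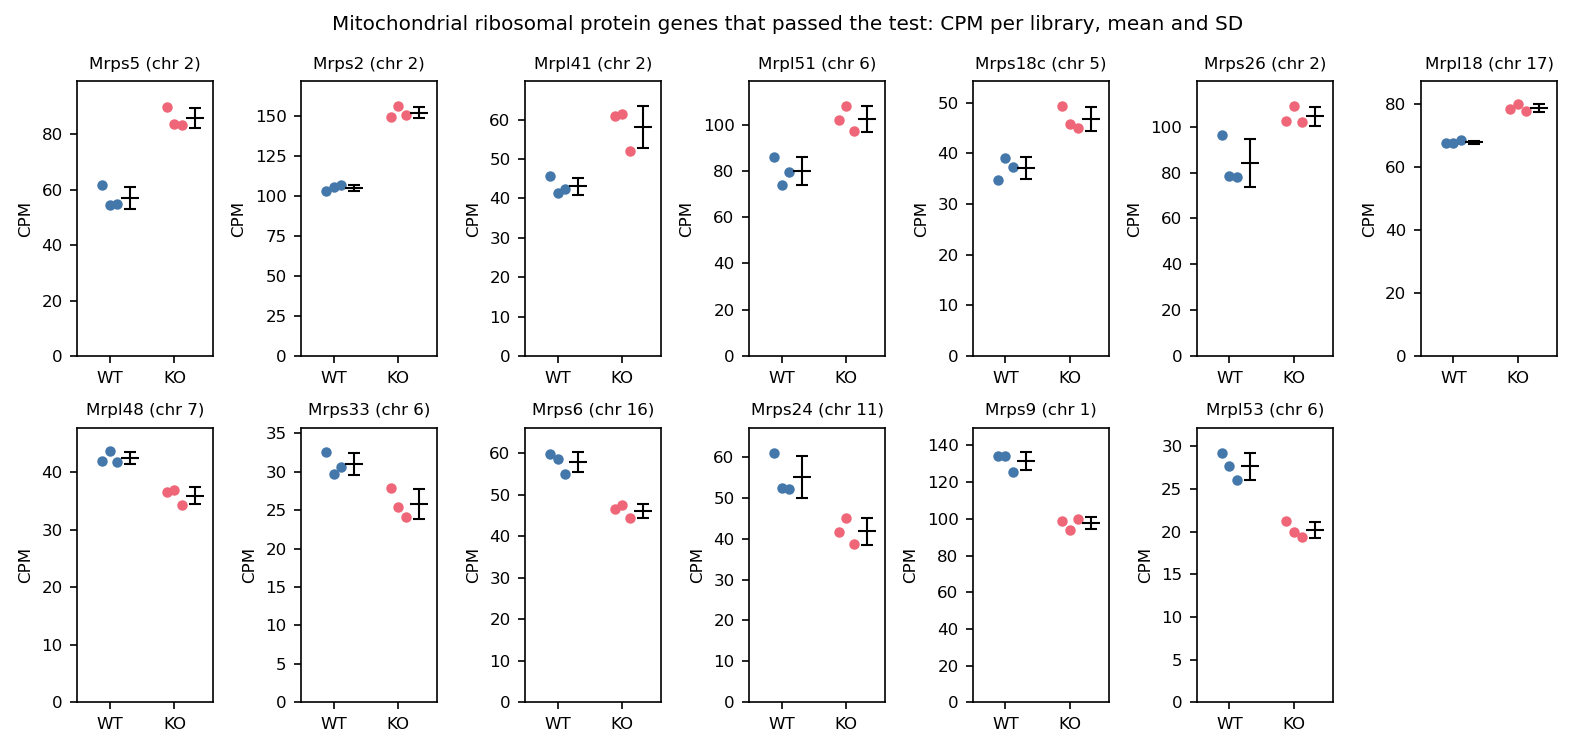
CPM in each library for the 13 genes that passed the test, WT in blue and KO in red, with mean ± SD in black beside each group of 3 and every axis starting at 0. In each panel the libraries of the lines are apart, and the steps are modest, from 1.16-fold (Mrpl18) to 1.51-fold (Mrps5) upward and 1.18-fold (Mrpl48) to 1.37-fold (Mrpl53) downward.

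In the large subunit, 5 of 51 genes were called (9.80%), 3 higher and 2 lower, beside 30.4% of all tested genes. The median log2 fold change of the 51 was -0.02. Mrpl41, found only in mitochondria and also described as a partner of BCL2, stood at 45.6, 41.4 and 42.4 CPM in WT and 60.8, 61.4 and 51.9 CPM in KO. KO replicate 3 was the lowest of its group and still above each WT library, and the rise was 1.35-fold (log2 fold change 0.42 ± 0.08, adjusted p = 0.00759, limma). Mrpl51, also without a bacterial counterpart, stood at 86.0, 73.9 and 79.7 CPM in WT and 102, 108 and 97.1 CPM in KO, a rise of 1.28-fold (log2 fold change 0.36 ± 0.08, adjusted p = 0.0103, limma). Mrpl18, which belongs to the central protuberance that faces the small subunit, stood at 67.7, 67.5 and 68.4 CPM in WT and 78.2, 80.0 and 77.8 CPM in KO. Its replicates were the closest of the 3 (SD 0.502 CPM in WT and 1.19 in KO), and its rise was 1.16-fold (log2 fold change 0.21 ± 0.06, adjusted p = 0.0240, limma).

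Mrpl53, a protein of the stalk base where translation factors land, had the largest negative estimate of all members. It went from 29.2, 27.7 and 26.0 CPM in WT to 21.3, 19.9 and 19.4 CPM in KO, 1.37-fold lower (log2 fold change -0.44 ± 0.08, adjusted p = 0.00396, limma). The other 4 stalk genes, Mrpl10, Mrpl11, Mrpl12 and Mrpl54, were not called. Mrpl48, of the central protuberance, went from 42.0, 43.7 and 41.7 CPM to 36.5, 36.9 and 34.2 CPM (log2 fold change -0.24 ± 0.07, adjusted p = 0.0271, limma). Mrpl18 and Mrpl48 each lost their call in 5 of the 6 runs that left out a library, all but that without WT replicate 1, with adjusted p of 0.067 to 0.0939 and 0.064 to 0.101. Of the 7 genes of the central protuberance, 1 rose and 1 fell (28.6%), a share near the 30.4% of all tested genes. The 6 genes around the exit tunnel include Mrpl45, which anchors the ribosome at the inner membrane. Of these 6, limma called 0, beside the same 30.4%, and 1 had an unadjusted p under 0.05. That gene, Mrpl47, was called by edgeR and by DESeq2.

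The 3 most abundant members by CPM were all in the large subunit and none was called by limma. Mrpl12, the stalk protein that binds translation factors, stood at 179.5, 145 and 152 CPM in WT and 158, 145 and 125 CPM in KO, with groups that overlap (log2 fold change -0.16 ± 0.11, adjusted p = 0.324, limma). Mrpl15 stood at 136, 135 and 131 CPM in WT and 152, 157 and 143 CPM in KO (log2 fold change 0.17 ± 0.06, adjusted p = 0.0731, limma), and DESeq2 called it (adjusted p = 0.0387). Mrpl19 stood at 147, 146 and 142 CPM in WT and 136, 133 and 127 CPM in KO (log2 fold change -0.13 ± 0.06, adjusted p = 0.119, limma). The libraries of the lines did not overlap for Mrpl15 or Mrpl19, with Mrpl15 higher and Mrpl19 lower in KO.

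Grouped by origin, 6 of the 31 proteins found only in mitochondria were called (19.4%, 3 higher and 3 lower). Of the 46 with a bacterial counterpart 7 were called (15.2%, 4 higher and 3 lower), beside 30.4% of all tested genes. The 30 large-subunit genes with a bacterial counterpart held a single call, Mrpl18, and all 30 estimates lay within 0.25 of 0. Of the 16 small-subunit genes with a bacterial counterpart 6 were called (37.5%), near the share of all tested genes. The SD of the estimates was 0.29 for the 16 and 0.14 for the 30. Mrps2 and Mrps5, among the 16, lie on chromosome 2, whose tested genes had a median log2 fold change of 0.34. None of the 30 lies there. Whether these shares differ was not tested. The 65 genes that were not called had log2 fold changes from -0.27 (Mrpl57) to 0.21 (Mrpl47).

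On chromosome 2 the members moved in the direction of the whole chromosome. All 4 members on chromosome 2 rose (Mrps2, Mrps5, Mrps26 and Mrpl41), so that 4 of the 7 higher calls come from a chromosome that carries 4 of the 78 genes. Genes of chromosome 2 were shifted as a whole in these libraries: 499 of 856 tested genes there rose (58.3%), 44 fell (5.14%), and the median log2 fold change was 0.34. The summed level of the 4 members was 307, 280.0 and 282 CPM in WT and 403, 411 and 388 CPM in KO, 38.4% higher, while the other 74 summed to 4061 ± 170 CPM in WT and 4001 ± 171 CPM in KO. Against the other genes of the chromosome the 4 were not at the extreme: Mrps5 exceeded 86.1% of them, Mrps2 80.3%, Mrpl41 64.1% and Mrps26 45.6%. Mrps26 lay 0.02 below the median of the chromosome on the log2 scale and Mrps5 0.25 above it. Leaving out the genes of chromosome 2 removes these 4 calls by construction. Of the other 74 members, 3 were then called higher and 6 lower (12.2%), beside 30.4% of all tested genes with chromosome 2 included.

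Mrps2 (ENSMUSG00000035772.11) lies on chromosome 2 from 28468066 to 28471178 and Mrps5 (ENSMUSG00000027374.12) from 127587222 to 127606829, both on the plus strand of mm10. Mrpl41 (ENSMUSG00000036850.4) lies from 24974117 to 24975098 on the minus strand and Mrps26 (ENSMUSG00000037740.8) from 130563742 to 130568695 on the plus strand. Mrps2 and Mrpl41 thus lie far from Mrps5 and Mrps26 on the chromosome.

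On chromosome 6, whose 517 tested genes had a median log2 fold change of -0.16 (30% lower and 5.61% higher), the 7 members went both ways. Mrpl53 and Mrps33 fell, and Mrpl51 rose against the direction of the chromosome, with an estimate above 95.4% of its genes. Mrpl35 (log2 fold change 0.15) and Mrps25 (0.05) were not called, and lay above 90.5% and 82.0% of the genes there. Mrpl19 and Mrps35 lay near the middle, above 54.0% and 53.6%. Outside chromosomes 2 and 6, 6 of 67 members were called (8.96%), 2 higher and 4 lower, beside 27.1% of 9241 tested genes.

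**Figure D4:**
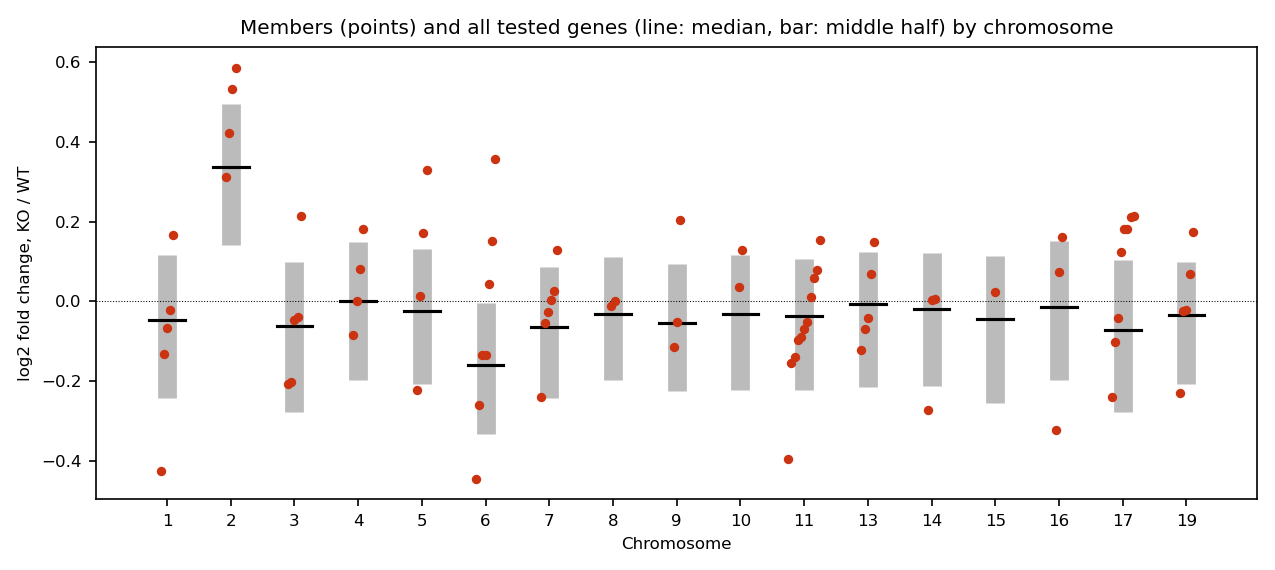
Log2 fold change (KO over WT) of each member (red points) on the 17 chromosomes that carry them, beside the median (black line) and the interquartile range (grey bar) of all tested genes of that chromosome. On chromosome 2 all 4 members lie far above 0, with the chromosome's median at 0.34, and on chromosome 6 the 7 members spread from -0.44 to 0.36.

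The balance of the subunits also depended on whether the members on chromosome 2 were counted. The ratio of summed large-subunit to small-subunit CPM was 2.15, 2.14 and 2.15 in WT and 2.08, 2.11 and 2.05 in KO, lower in each KO library. When the 4 members on chromosome 2, of which 3 belong to the small subunit, were left out, the ratio was 2.59, 2.56 and 2.59 in WT and 2.68, 2.71 and 2.67 in KO. It was then higher in each KO library, so the direction of the ratio depends on which genes are counted. The genes left out were all called higher in KO, while the 4 small-subunit genes called lower were kept. This lifts the ratio in KO, so it does not show what sets the balance. These are ratios of mRNA and say nothing of subunit protein.

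Many of these genes start near a neighbour on the opposite strand. For 33 of the 78 the outermost annotated start lay within 1000 bases of that of a protein-coding gene on the opposite strand. This start can differ from the RefSeq start of the promoter entries, as it did for Mrpl48. Only the distance was used, so pairs that overlap at their starts were included, and a shared promoter was not tested. The 30 such pairs with both genes tested had log2 fold changes with a Pearson correlation of 0.118 and a Spearman correlation of 0.0621, given as a description, since the pairs share libraries and some share exon bases. Over the 17 pairs without shared exon bases Pearson's value was 0.121. Of the 33 members 6 were called (18.2%), beside 30.4% of all tested genes. Of the neighbours in the 30 pairs, 2 were called higher and 2 lower. The member was called in 6 of the pairs, mostly with a neighbour that was not called. In 3 of the pairs the neighbour was called and the member was not, and in 1 pair both were called.

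That pair was Mrpl41 and Pnpla7, a lysophospholipase gene that starts 935 bases away. Pnpla7 stood at 161, 161 and 145 CPM in WT and 234, 250 and 251 CPM in KO (log2 fold change 0.65 ± 0.07, adjusted p = 0.000318, limma), and both genes lie on chromosome 2. Zfp661, which starts 128 bases from Mrps5, gave the opposite picture. It stood at 8.63, 10.45 and 7.81 CPM in WT and 7.36, 7.16 and 8.58 CPM in KO and was not called (log2 fold change -0.20 ± 0.12, adjusted p = 0.261, limma), while Mrps5 rose 1.51-fold. Ncapd2, a condensin gene 100 bases from Mrpl51, had a log2 fold change of -0.12 (adjusted p = 0.291, limma). Fau, which encodes a cytosolic ribosomal protein fused to a ubiquitin-like protein and starts 59 bases from Mrpl49, fell from 659.6 ± 84.2 to 489.9 ± 54.6 CPM (log2 fold change -0.43 ± 0.11, adjusted p = 0.0244, limma). Mrpl49 itself had a log2 fold change of 0.18 and was not called. These pairs were chosen for the text after their values were seen.

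**Figure D5:**
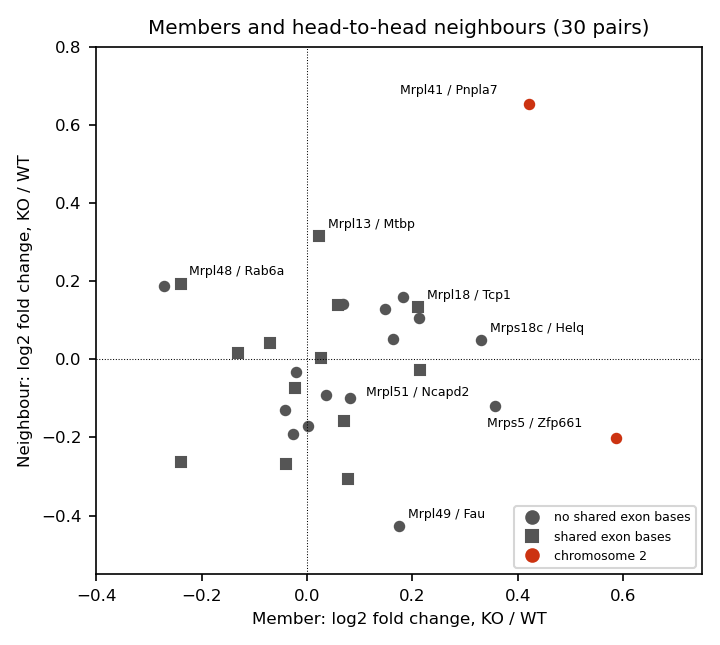
Log2 fold change (KO over WT) of a member (x axis) against that of the protein-coding gene that starts within 1000 bases on the opposite strand (y axis), for 30 pairs. Squares share exon bases with the neighbour and red points lie on chromosome 2: the points form no line (Pearson's value 0.118), and Mrpl41 with Pnpla7 stands alone at the upper right.

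Exons of 33 members overlap those of another annotated gene, and 8 of the 13 called genes are among them. The 8 are 24.2% of the 33, beside 30.4% of all tested genes. Whether strand was used in counting is unknown, so reads of shared bases cannot be assigned. Where a member overlaps several genes the shared bases were summed over them, so a base can count once for each. Mrpl53 shares 710 exon bases in this sum with Gm42688 and Ccdc142os. Mrps6 shares 464 in the same way with Gm49711 and Slc5a3, of which Slc5a3 is listed at 0 in all libraries. Mrpl48 shares 708 bases with Rab6a (64.2 ± 9.91 CPM in WT and 73.0 ± 5.03 CPM in KO), and Mrps24 shares 226 with Urgcp (34.5 ± 2.31 and 33.0 ± 2.53 CPM), neither of them called. Among the 45 members with no exon overlap, 3 rose (Mrps2, Mrps5 and Mrpl41) and 2 fell (Mrps9 and Mrps33), 11.1% beside the same 30.4%. Whether the shares with and without overlap differ was not tested.

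The rest of the mitochondrial translation system was described from lists, whose counts are to be read beside the 30.4% of all tested genes that were called. The 5 subunits of the mitochondrial ribosome with other names (Dap3, Ptcd3, Chchd1, Aurkaip1 and Gadd45gip1) were not called: 0 passed the test by limma, 0 had an unadjusted p under 0.05, and their log2 fold changes ran from -0.10 to 0.06. Ptcd3, the most abundant, had 162 ± 21.5 CPM in WT against 167 ± 3.84 CPM in KO. Of 10 translation factors 3 rose and 0 fell, a share near that of all tested genes. The median of their log2 fold changes was 0.12, beside -0.02 over all tested genes. Gfm2, which helps split the ribosome after termination, rose from 38.1 ± 4.19 to 49.9 ± 2.42 CPM, and its partner in that step, Mrrf, from 27.7 ± 0.756 to 33.8 ± 0.748 CPM. Gfm1, the elongation factor that moves the ribosome along mRNA, rose from 122 ± 1.45 to 143 ± 5.02 CPM. Mrrf lies on chromosome 2, where 58.3% of tested genes rose. Without WT or KO replicate 3 the adjusted p of Gfm2 was 0.0585 and 0.0576. Without WT replicate 3, KO replicate 1 or KO replicate 2 that of Mrrf was 0.0525 to 0.0624. That of Gfm1 was 0.0541 to 0.0741 when any library except WT replicate 1 was left out.

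Among 17 tested genes of ribosome assembly and ribosomal RNA modification, 1 rose and 2 fell (median -0.04). Gtpbp10, a GTPase that matures the large subunit, rose from 8.87 ± 1.99 to 17.6 ± 1.15 CPM (log2 fold change 0.97 ± 0.15, adjusted p = 0.00247, limma), a larger change than that of any ribosomal protein gene here. Nsun4, which methylates mitochondrial ribosomal RNA and joins the subunits, fell from 14.2 ± 1.78 to 9.60 ± 0.384 CPM, and the helicase Ddx28 from 28.3 ± 1.603 to 21.5 ± 1.55 CPM. Without KO replicate 1 the adjusted p of Ddx28 was 0.0504. Of 17 mitochondrial tRNA synthetases 1 fell, Hars2, from 32.5 ± 4.70 to 24.7 ± 0.589 CPM, and the list median was -0.09. Without WT replicate 3 or any of the KO libraries its adjusted p was 0.0513 to 0.0937. Of 11 genes of mitochondrial transcription and RNA handling 1 fell, Tefm, a transcription elongation factor, from 25.8 ± 2.24 to 20.2 ± 2.20 CPM (median 0.09). Its adjusted p was 0.0518 to 0.125 when any library except WT replicate 1 was left out. Of 8 tested regulators of nuclear genes for mitochondria 1 was called, Gabpb1, a subunit of the ETS factor GABP that lies on chromosome 2, with 31.98 ± 4.42 CPM in WT against 39.6 ± 0.317 CPM in KO. Its adjusted p of 0.05 lay, before rounding, just under the threshold, and it was 0.063 to 0.134 when any library except WT replicate 2 was left out. Messenger RNAs encoded in mitochondrial DNA were not analysed here.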

How the data were processed

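Libraries made with an mRNA kit were read as Illumina read pairs, per the labels' protocols. The submitters' processing notes name the programs Trim Galore, FastQC, STAR (version 2.6.0a), Picard, SAMtools and the build mm10; duplicates were removed, per the file headers. The sources used here do not name the counter, the annotation or the strand setting. CPM per gene symbol is what the authors deposited. Each value was a whole multiple of what 1 read is worth (tolerance 0.01 of a read) in 100% of cases, so reads were recovered for count tests, in which edgeR called 3359 genes and DESeq2 3758.

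The filter kept a gene that reached 1 CPM in 3 or more of the 6 libraries. Log2(CPM + 0.5) was fitted by limma (3.58.1, R 4.3.3; eBayes with trend, no covariates), with Benjamini-Hochberg adjustment. The fit was also run on simulated data, in which fewer genes changed, and mostly by more, than the members called here. No result rests on that run. Positions come from GENCODE M21 (GRCm38), in which all 78 members and 24305 of 24848 symbols matched, and lengths from the longest APPRIS principal transcript. The members and lists were chosen with earlier results of these data known. Named are up to 10 called members in each direction, the 3 most abundant, the Mrps18 paralogues, and up to 3 called genes in each direction of a related list (or its most abundant gene); any other name was chosen after its values were seen. Alternatives were other pseudocounts, filters, scalings and limma settings, blocking by replicate number, count tests (edgeR 4.0.16, DESeq2 1.42.0), and leaving out each library or chromosome 2.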

Additional observations from a re-analysis of the deposited data

How the results depend on the processing

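Under 18 alternative settings the 13 called members kept the sign of their log2 fold change (0 reversed), and 7 kept their call in each: Mrps2, Mrps5, Mrpl41, Mrpl51, Mrpl53, Mrps6 and Mrps9. EdgeR called 14 members and DESeq2 15, of which 12 were called by limma in each case. They called Mrpl47 and Mrps22, and DESeq2 also Mrpl15. When a library was left out, the members called were 4 to 11 higher and 3 to 5 lower, and all genes called were 913 to 1643 higher and 1005 to 1884 lower. The runs that moved the members' counts most were those without WT replicate 1 (11 higher), without KO replicate 1 (4 higher, 3 lower) and without KO replicate 3 (3 lower). Without chromosome 2, whose 4 members were all called higher, 3 members were higher, and 880 genes in all. The median over the members ran from -0.04 to 0.04 over all settings. Replicate numbers are shared by the lines. Deviations from the mean of a line had correlations of -0.25, -0.64 and -0.17 between same-numbered libraries. Between differently numbered libraries they were -0.44 to 0.61. Deviations cancel within each line, so these values cannot decide whether libraries of the lines were paired or shared a batch. With the replicate block the calls were 4 members higher and 4 lower, and 891 genes higher and 1118 lower in all. Every member had at least 625 reads in each library, so counting error was at most 4.00% of a value and the 3 libraries a line limit the precision.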
